A study of Mus musculus with 33 samples.

Results

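The cells compared here were Thy1-SSEA1+ intermediates of reprogramming on days 8, 11 and 14. They were mouse embryonic fibroblasts that had been sorted as negative for an Oct4-GFP reporter, negative for Thy1 and positive for SSEA1. The comparison sets 3 libraries of cells that overexpressed Dppa2 and Dppa4 against 3 libraries of cells with a control overexpression, paired by day, which makes 6 of the 33 samples of the study. Cells of both arms had the genotype Col1a1-OSKM+/-; Rosa26-rtTA+/-; Oct4-GFP+/- and were grown with LIF and doxycycline at 1 μg/ml, so Pou5f1, Sox2, Klf4 and Myc were induced in both. The labels name a lentiviral transduction, and the promoter of the vector is not given in the sources used here. Each arm and day held 1 polyA RNA library. The 3 days are therefore the only repeats, and the labels do not say whether they came from separate cultures. Each p-value and SE rests on the spread of the difference over days, moderated by the spread of the other genes fitted.

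Dppa2 and Dppa4 are small SAP-domain proteins of pluripotent and germ cells that bind chromatin together and keep developmental and germline promoters accessible. Fibroblasts that respond to the OSKM factors first lose the surface antigen Thy1 and then gain the carbohydrate SSEA1, and a fraction of these cells later turns on the endogenous Oct4 locus. Thy1-SSEA1+ cells without the reporter are thus cells on the way, which carry part of the pluripotency network beside what remains of other programs.

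The libraries were checked against the sort. Thy1, which the sort removes, had 10.3, 26.5 and 11.9 FPKM (fragments per kilobase of exon, scaled to library depth) in Dppa2/4 cells on days 8, 11 and 14, against 6.27, 12.2 and 67.2 FPKM in control cells. In Thy1+SSEA1- cells of days 8 and 14 the gene had 244 and 278 FPKM with Dppa2/4 and 447 and 750 FPKM with control, so all 6 libraries lay below those of the Thy1+ sort. Fut9, whose product makes the SSEA1 epitope, had 5.26 to 15.3 FPKM in Dppa2/4 cells and 5.38 to 6.59 FPKM in control cells. Fut4, the other such enzyme, had 0.882 to 1.15 FPKM with Dppa2/4 and 0.252 to 0.408 FPKM with control, with no overlap of the arms and a difference that did not pass the test.

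Dppa2 (chromosome 16, 48303908 to 48319723, GRCm38) had 123, 43.2 and 114 FPKM in Dppa2/4 cells on the 3 days, against 14.2, 6.40 and 11.4 FPKM in control cells. Dppa4, its neighbour on the same strand (48283733 to 48294237), had 156, 47.8 and 125 FPKM in Dppa2/4 cells, against 8.10, 7.23 and 28.6 FPKM in control cells. Day 11 was the lowest of the 3 Dppa2/4 libraries for both genes, and the arms did not overlap. The difference, on the log2(FPKM + 1) scale used throughout, was 2.94 ± 0.26 for Dppa2 and 2.92 ± 0.37 for Dppa4 (± SE, 3 pairs). FPKM does not separate vector from endogenous transcripts.

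The smallest FPKM values piled up at what 1 fragment is worth, 0.0232 to 0.0322 FPKM in a gene with 1 kb of exon, which implies an estimated 31000000 to 43100000 fragments per library. Markers of fibroblasts (7 genes, summed) ran from 90.5 to 287 FPKM in Dppa2/4 cells and from 57.3 to 391 FPKM in control cells. The highest sums were those of day 11 in the Dppa2/4 arm and of day 14 in the control arm. Immune markers (14 genes, 10 of them above 1 FPKM in some library) summed to 105 to 153 FPKM with Dppa2/4 and 92.9 to 211 FPKM with control, endothelial markers (10 genes) to 52.0 to 84.2 and 41.9 to 87.7 FPKM, and neural markers (11 genes) to 37.2 to 55.7 and 27.7 to 50.4 FPKM. Keratinocyte markers (10 genes) summed to 4.10 to 8.04 and 4.55 to 6.86 FPKM and striated muscle markers (9 genes) to 10.5 to 19.4 and 3.91 to 22.9 FPKM. Trophoblast markers, with Tpbpa at 0 throughout, summed to 37.2 to 67.3 FPKM in Dppa2/4 cells and to 74.9 to 93.4 FPKM in control cells. In bulk RNA, fewer cells of a type and less RNA per cell cannot be told apart.

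**Figure D1:**
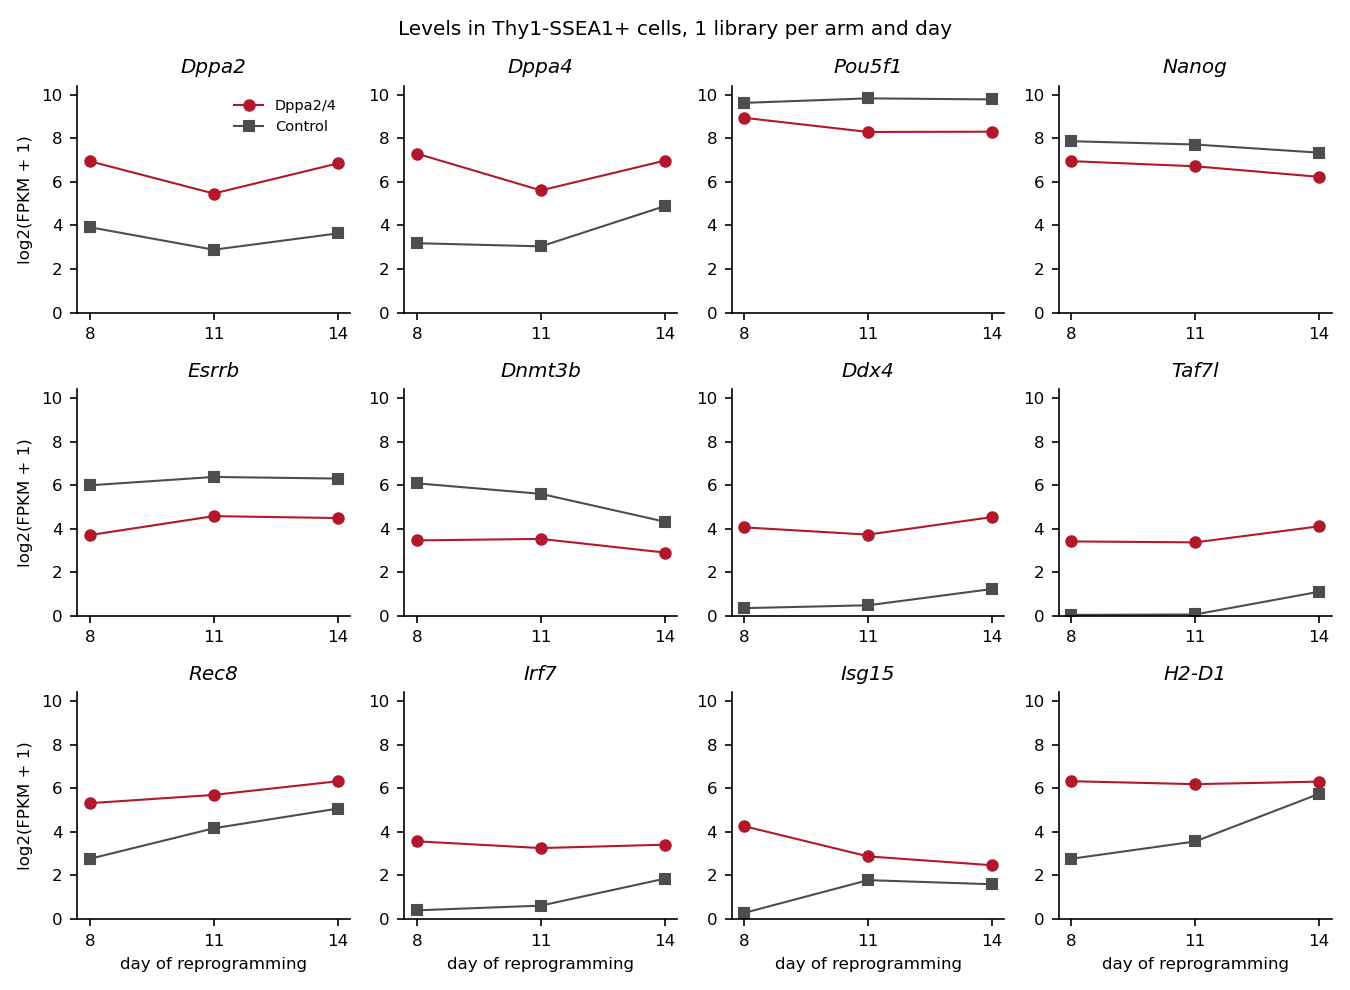
Level of 12 genes in Thy1-SSEA1+ cells by day of reprogramming, as log2(FPKM + 1), with 1 library per point (Dppa2/4 circles, control squares) and lines joining the days of an arm. Pou5f1, Nanog, Esrrb and Dnmt3b lie lower in the Dppa2/4 arm on all 3 days, and the other 8 genes lie higher.

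A paired limma fit of all 14567 genes that passed the filter on low values called 10 genes higher (0.0686% of genes) and 5 lower (0.0343%) in Dppa2/4 than in control cells at an adjusted p under 0.05, with 1990 and 1156 genes at an unadjusted p under 0.05. Ddx4, Taf7l, Dppa2, 2010001M09Rik and Ngfr were the protein-coding calls, and 7 of the 15 were small RNA genes that were listed at 0 in every library of 1 arm. The same fit restricted to the 12432 protein-coding genes, over the same 6 libraries and with the same differences, called 725 genes higher (5.83%) and 246 lower (1.98%), and 2019 and 1137 genes had an unadjusted p under 0.05. The fit of all genes was the test chosen as the main one, and the protein-coding fit was 1 of 11 alternatives to it, over which the count of genes higher ran from 0 (no filter on low values) to 1502. The protein-coding fit was taken up for the gene groups below after its counts had been seen. Rose and fell below refer to it, and apart from those 5 no gene so described passed the fit of all genes, whose adjusted p is given beside it for genes that lead a group. With no filter on low values, the protein-coding fit also called 0 genes. Of the calls of the protein-coding fit, 74.7% were higher, against 58.3% after quantile normalization, where the median difference over those genes was -0.03, against 0.07 without it. A difference that had the same direction on 3 of 3 days was upward in 24.8% and downward in 18.6% of all genes tested. Without the day 11 pair 295 genes rose and 79 fell, without day 8 1471 and 1154, and without day 14 1612 and 452. A fit of 2 pairs has 1 residual degree of freedom and takes its spread almost wholly from other genes. With all 3 pairs much of the spread is still taken from other genes. The total was 5.56 degrees of freedom in the fit of all genes and 9.98 in the protein-coding fit. A gene's own 3 differences supply 2 of these.

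Genes of the pluripotency network were lower in Dppa2/4 than in control intermediates. The transcription factors of naive embryonic stem cells had a median difference of -1.39 over 14 genes, against 0.06 over all genes tested, and 9 of the 14 fell and none rose. In 13 of the 14 the difference was downward on 3 of 3 days. Without day 11, 6 fell.

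Esrrb, an orphan nuclear receptor that maintains self-renewal, had 12.1, 22.9 and 21.4 FPKM in Dppa2/4 cells on days 8, 11 and 14, against 62.6, 82.0 and 77.8 FPKM in control cells. It was 1.96 ± 0.25 lower, with an adjusted p of 0.00667 in the protein-coding fit and 0.0775 in the fit of all genes. The highest Dppa2/4 library thus stayed well under the lowest control library. Nr5a2, a nuclear receptor that acts upstream of Oct4, had 0.378, 1.27 and 1.72 FPKM with Dppa2/4, against 23.9, 16.1 and 5.10 FPKM with control, and Prdm14, which holds down the methylation machinery in naive cells, had 1.12, 1.85 and 3.94 FPKM against 12.9, 11.7 and 14.5 FPKM. Their differences were -2.75 ± 0.48 and -2.17 ± 0.31. For Nr5a2 the gap narrowed from day 8 to day 14 as the control level went down.

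Nanog, the homeodomain factor at the centre of the network, had 123, 104 and 74.1 FPKM in Dppa2/4 cells, against 232, 209 and 161 FPKM in control cells. It was about equally lower on each day (-1.01 ± 0.23, adjusted p of 0.0278 in the protein-coding fit and 0.0925 in the fit of all genes), and it was not called without day 11, where the difference was also -1.01. Zscan10, Sall4, Sox15 and Nr0b1 fell as well, by 1.14 to 1.77 on the log2 scale. Tfcp2l1, Zfp42, Tbx3 and Klf2 had differences between -1.04 and -1.54 with adjusted p of 0.0663 to 0.0761, and in Zfp42, Tbx3 and Klf2 the arms overlapped. Klf5 differed by -0.12 ± 0.31 and was higher in Dppa2/4 cells on days 11 and 14.

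The 4 induced factors were read as the sum of transgene and endogenous transcript. Pou5f1 had 491, 312 and 315 FPKM in Dppa2/4 cells, against 789, 911 and 881 FPKM in control cells, a difference of -1.24 ± 0.25. Sox2 had 10.9, 28.4 and 32.4 FPKM, against 69.2, 74.7 and 61.1 FPKM in control cells, and differed by -1.61 ± 0.33. Klf4 had 29.5, 21.2 and 10.6 FPKM with Dppa2/4 and 50.4, 61.8 and 30.8 FPKM with control. These 3 genes fell, with adjusted p of 0.0208, 0.0204 and 0.0249 in the protein-coding fit and 0.0988, 0.105 and 0.0977 in the fit of all genes. Without day 11, Pou5f1 (-1.08) and Klf4 (-1.11) were not called. Myc had 110, 52.6 and 13.9 FPKM with Dppa2/4 and 116, 128 and 57.5 FPKM with control, and its difference of -1.11 ± 0.34 did not pass (adjusted p = 0.0741).

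Among 19 other markers of pluripotent cells, 7 fell and none rose, with a median difference of -1.06. Without day 14, 12 fell and 2 rose. Utf1, a chromatin protein of embryonic stem cells, had 6.27, 6.25 and 5.25 FPKM in Dppa2/4 cells, against 23.9, 33.8 and 36.7 FPKM in control cells. Lin28a, which blocks let-7 maturation, had 0.769, 6.79 and 6.45 FPKM with Dppa2/4 and 19.7, 21.3 and 29.9 FPKM with control. Dppa3, a maternal factor that protects methylation after fertilization, had 1.81, 15.0 and 19.9 FPKM with Dppa2/4, against 45.5, 45.0 and 53 FPKM with control. For Lin28a and Dppa3 the Dppa2/4 level was by far the lowest on day 8. The differences were -2.21 ± 0.28, -2.37 ± 0.38 and -2.31 ± 0.46. Mybl2, Tdh, Fgf4 and Tcl1 also fell. Alpl, Slc7a3, Jam2, Upp1 and Spp1 overlapped between the arms, with differences between -0.21 and 0.76 that did not pass.

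Genes of the postimplantation epiblast were lower too. Of 8 tested, 4 fell and none rose, and without day 11 2 fell. Of the 8, 3 had too few Dppa2/4 libraries at 1 FPKM to pass the filter on that arm alone, Pou3f1 among them. A filter passed in this way favours genes that are lower with Dppa2/4. With no filter the median over 9 genes was -0.93, against -1.07 over the 8, and 0 were called. Dnmt3b, the de novo methyltransferase of the epiblast, had 10.0, 10.6 and 6.49 FPKM in Dppa2/4 cells, against 66.8, 47.5 and 19 FPKM in control cells (-2.03 ± 0.30, adjusted p of 0.00744 in the protein-coding fit and 0.0793 in the fit of all genes). Otx2, a homeodomain factor of the primed state, had 0.389, 11.4 and 4.90 FPKM with Dppa2/4 and 11.9, 12.9 and 34.7 FPKM with control, so the arms came close on day 11. Pou3f1 (-1.44) and Etv4 (-1.22) fell as well, Pou3f1 not without day 11 (-1.30), while Zic2 and Zic5 differed by 0.30 and 0.39 and overlapped.

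In the Nodal pathway the ligand and its antagonists moved in opposite directions. Nodal, the ligand, had 2.58, 3.83 and 3.69 FPKM in Dppa2/4 cells, against 9.92, 8.79 and 12.6 FPKM in control cells, and fell by 1.39 ± 0.29 on the log2 scale. Lefty1 and Lefty2, secreted inhibitors of Nodal and also its targets, rose. Lefty1 had 63.7, 53.4 and 19.3 FPKM with Dppa2/4 and 4.18, 6.79 and 14.6 FPKM with control (2.27 ± 0.51). Lefty2 had 85.2, 85.9 and 45.9 FPKM with Dppa2/4 and 26.6, 18.4 and 23 FPKM with control (1.59 ± 0.29). The distance between the arms was smallest on day 14 for both. Adjusted p was 0.0211, 0.0273 and 0.0134, and 0.137 for Lefty1 in the fit of all genes. Without day 11, Nodal (-1.57) and Lefty2 (1.30) were not called. Of the list, 4 rose and 2 fell without day 14, 2 rose and 2 fell without day 8, and 1 rose without day 11. With all days, the remaining 11 genes, which include the receptors Acvr1b, Acvr2a and Acvr2b and the effectors Smad2 and Smad3, did not pass.

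**Figure D2:**
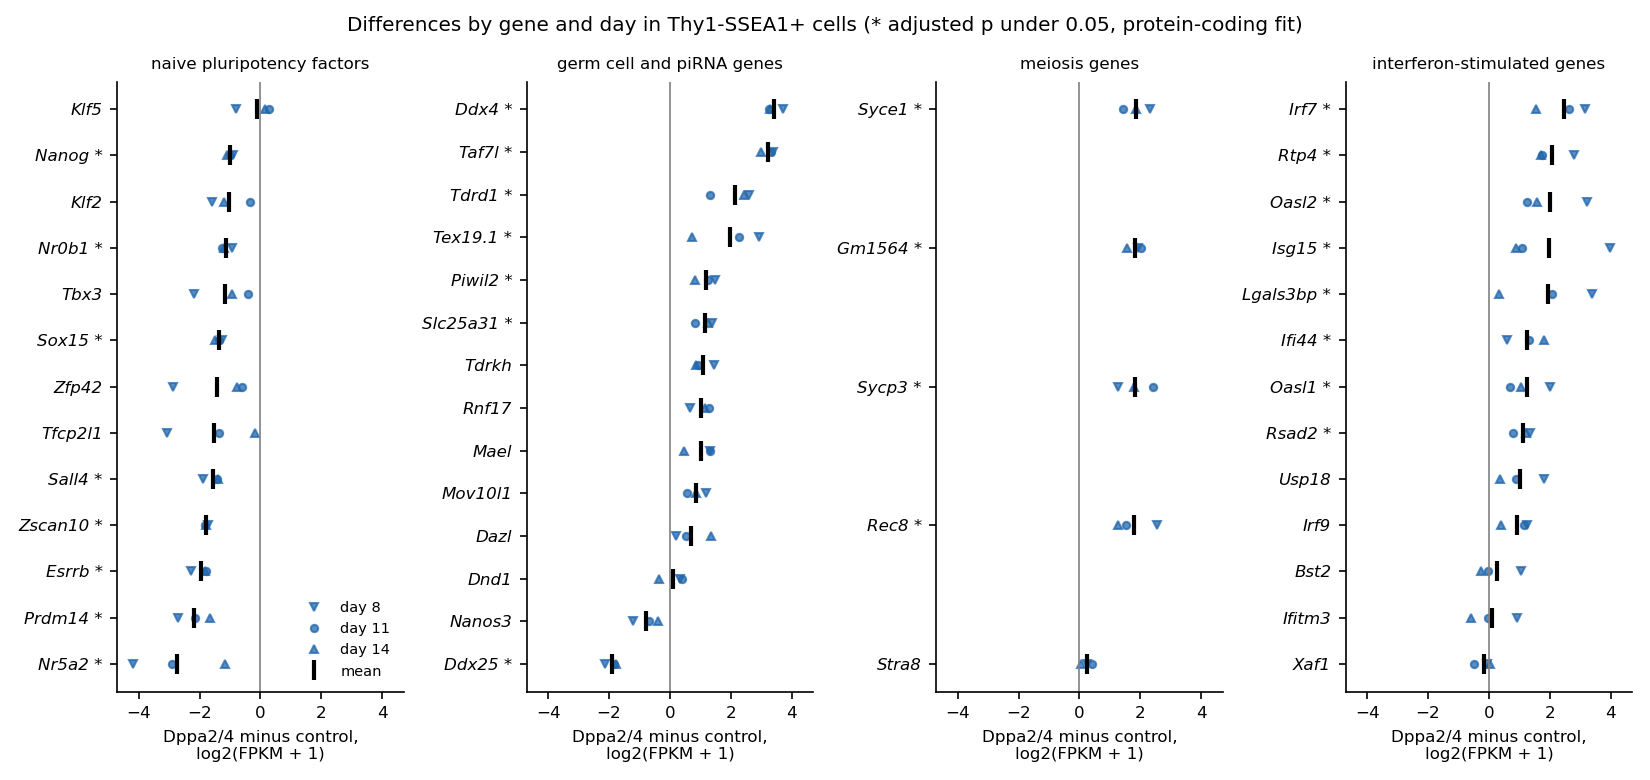
Difference between Dppa2/4 and control Thy1-SSEA1+ cells on the log2(FPKM + 1) scale (x axis) for the members of 4 gene lists that the text names, with 1 symbol per day and a bar at the mean; stars mark an adjusted p under 0.05 in the protein-coding fit. Of the 13 naive pluripotency genes shown, 12 lie below 0 on all 3 days, and Ddx4 and Taf7l lie farthest above 0.

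Germline genes went the other way. Of 29 germ cell and piRNA genes, 19 passed the filter on low values, 9 of them with too few control libraries at 1 FPKM to pass on the control arm alone, as did 4 of the 6 that rose. A filter passed in this way favours genes that are higher with Dppa2/4, so the counts only describe those that passed: 6 rose and 1 fell, with 8 and 3 without day 14 and 5 and 3 after quantile normalization. With no filter the median over all 29 was 0.29, against 0.87 over the 19, and 0 were called. The 4 that rose with too few control libraries at 1 FPKM were Ddx4, Taf7l, Tdrd1 and Slc25a31. Ddx4 and Taf7l rose most, and both were also called in the fit of all genes, which used the same filter. Ddx4 (chromosome 13, 112598333 to 112652475, GRCm38), the Vasa RNA helicase that marks germ cells, had 15.7, 12.2 and 22.2 FPKM in Dppa2/4 cells on days 8, 11 and 14, against 0.278, 0.400 and 1.35 FPKM in control cells. Its difference was 3.42 ± 0.28, with an adjusted p of 0.00215 in the protein-coding fit and 0.03 in the fit of all genes. Taf7l (chromosome X, 134460118 to 134476490), a germ cell paralog of the TFIID subunit TAF7, had 9.67, 9.36 and 16.3 FPKM with Dppa2/4 and 0.0313, 0.0460 and 1.16 FPKM with control (3.23 ± 0.27, adjusted p of 0.00215 and 0.0302). In both genes the control level was highest on day 14 and still below each Dppa2/4 library.

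Of the piRNA pathway, Tdrd1, a Tudor scaffold that binds PIWI proteins, had 6.14, 2.01 and 5.53 FPKM in Dppa2/4 cells, against 0.178, 0.205 and 0.199 FPKM in control cells. It rose by 2.12 ± 0.31 on the log2 scale. Piwil2, a PIWI protein of spermatogonia, rose by 1.19 ± 0.28 and had 4.92, 4.49 and 6.81 FPKM with Dppa2/4 and 1.11, 1.30 and 3.44 FPKM with control. Tex19.1, which restrains retrotransposons in the germline, had 50.6, 36.7 and 32.8 FPKM with Dppa2/4 and 5.79, 6.89 and 19.5 FPKM with control, and Slc25a31, an ADP/ATP carrier of the testis, had 0.917 to 1.81 FPKM with Dppa2/4 and 0 to 0.169 FPKM with control, and both rose. Mael, Rnf17, Mov10l1 and Tdrkh had differences of 0.87 to 1.07 that did not pass. Ddx25, a testis RNA helicase, was the member that fell, with 1.14, 1.25 and 1.26 FPKM in Dppa2/4 cells, against 8.41, 6.99 and 6.66 FPKM in control cells (-1.91 ± 0.28). Dazl, Nanos3 and Dnd1, RNA-binding proteins of primordial germ cells, did not pass.

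Of 24 meiosis genes, 15 passed the filter, 7 of them with the help of Dppa2/4 libraries. Of those that passed, 4 rose and none fell. Syce1 and Gm1564, among the 4, were under 1 FPKM in every control library, so they had to be higher with Dppa2/4 to pass. With no filter the median over all 24 was 0.25, against 0.48 over the 15, and 0 were called. Rec8, the meiotic cohesin subunit, had 38.9, 50.9 and 79.1 FPKM in Dppa2/4 cells, against 5.80, 17.0 and 32.6 FPKM in control cells (1.78 ± 0.30). Sycp3, of the synaptonemal complex axis, had 4.02, 13.9 and 24.2 FPKM with Dppa2/4 and 1.11, 1.82 and 6.20 FPKM with control. Both genes went up with the day in both arms, so the day 8 Dppa2/4 level of Sycp3 lay under the day 14 control level. Syce1, of the central element, had 4.42, 2.00 and 5.80 FPKM with Dppa2/4 and 0.0945, 0.121 and 0.889 FPKM with control, and Gm1564 had 3.28, 3.94 and 4.32 FPKM against 0.133, 0.225 and 0.817 FPKM. The differences of Syce1, Gm1564 and Sycp3 were 1.86 ± 0.28, 1.83 ± 0.26 and 1.82 ± 0.31, and Sycp3 was not called without day 11 (1.53). Stra8, the retinoic acid target that opens meiosis, had 0.202, 0.428 and 1.91 FPKM with Dppa2/4 and 0, 0.0656 and 1.80 FPKM with control, and did not pass.

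Of 24 genes of the 2-cell stage, which Dppa2 and Dppa4 are known to activate in embryonic stem cells, 21 stayed below the filter. The 3 that passed, Tdpoz4, Dub3 and Zscan4f, had 0.870 to 2.24 FPKM in Dppa2/4 cells and 0 to 0.189 FPKM in control cells. They passed the filter through the Dppa2/4 libraries alone, so they had to be higher there, and no count is drawn from them. All 3 belong to families of near-identical copies among which reads can be split, so the values are uncertain.

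Promoters of germline genes are shown because Ddx4 and Taf7l were among the genes with the highest differences. Many germline genes are known to be repressed through an E-box in somatic cells, and a part of the E-box here was not tested. Windows of 300 bases, 250 before and 50 after the start, were taken from RefSeq (GRCm38.p6) and searched on both strands. The E-box CACGTG was found in 12 of 25 germ cell and piRNA genes with a window (48%) and in 5 of 18 meiosis genes (27.8%), against 12.1% of the protein-coding genes tested and 8.09% of all RefSeq genes. Over all calls of the protein-coding fit the share was 10.8% of the genes that rose and 19.9% of those that fell. The E2F motif TCCCGC was found in 28% of the germ cell and piRNA genes and 55.6% of the meiosis genes, against 40.9% of the genes tested, in 40.7% of those that rose and in 35.1% of those that fell. The motif core of the interferon response, described below, was in 4% and 11.1% of these 2 lists. A match describes letters in the window only. Below, capitals mark each E-box in the windows of 5 list members that rose and of Lat and Nmu, which are among the 10 genes with the highest differences. These windows were chosen because they hold the motif.
Ddx4, chr13:112652261-112652560, minus strand: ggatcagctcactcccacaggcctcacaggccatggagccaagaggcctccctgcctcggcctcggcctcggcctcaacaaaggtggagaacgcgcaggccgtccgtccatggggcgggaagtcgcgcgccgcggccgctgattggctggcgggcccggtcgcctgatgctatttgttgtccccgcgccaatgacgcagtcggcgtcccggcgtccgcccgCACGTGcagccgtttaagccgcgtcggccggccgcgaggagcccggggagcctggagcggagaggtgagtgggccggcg
Taf7l, chrX:134476441-134476740, minus strand: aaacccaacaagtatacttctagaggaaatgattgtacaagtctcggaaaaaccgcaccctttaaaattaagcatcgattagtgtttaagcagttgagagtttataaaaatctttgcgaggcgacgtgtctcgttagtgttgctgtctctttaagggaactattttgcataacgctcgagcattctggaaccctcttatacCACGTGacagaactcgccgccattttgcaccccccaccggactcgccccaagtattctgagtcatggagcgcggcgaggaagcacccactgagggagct
Tdrd1, chr19:56825959-56826258, plus strand: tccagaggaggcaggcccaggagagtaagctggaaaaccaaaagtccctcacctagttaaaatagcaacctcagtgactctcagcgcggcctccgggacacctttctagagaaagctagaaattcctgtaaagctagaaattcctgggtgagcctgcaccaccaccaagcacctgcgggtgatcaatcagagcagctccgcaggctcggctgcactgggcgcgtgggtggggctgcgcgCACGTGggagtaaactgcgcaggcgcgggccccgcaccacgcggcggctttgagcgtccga
Slc25a31, chr3:40708621-40708920, plus strand: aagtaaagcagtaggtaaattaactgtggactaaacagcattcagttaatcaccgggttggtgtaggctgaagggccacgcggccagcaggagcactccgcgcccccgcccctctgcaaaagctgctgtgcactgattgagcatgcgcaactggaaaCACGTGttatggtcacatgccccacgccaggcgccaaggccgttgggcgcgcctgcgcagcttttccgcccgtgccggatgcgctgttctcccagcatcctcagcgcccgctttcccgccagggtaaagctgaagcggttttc
Sycp3, chr10:88459337-88459636, plus strand: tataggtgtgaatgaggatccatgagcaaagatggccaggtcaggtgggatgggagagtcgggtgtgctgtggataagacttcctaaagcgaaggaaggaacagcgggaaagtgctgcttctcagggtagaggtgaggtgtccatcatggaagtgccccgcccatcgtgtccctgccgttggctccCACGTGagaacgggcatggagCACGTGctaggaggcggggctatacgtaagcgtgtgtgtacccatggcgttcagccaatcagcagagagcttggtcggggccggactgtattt
Lat, chr7:126369519-126369818, minus strand: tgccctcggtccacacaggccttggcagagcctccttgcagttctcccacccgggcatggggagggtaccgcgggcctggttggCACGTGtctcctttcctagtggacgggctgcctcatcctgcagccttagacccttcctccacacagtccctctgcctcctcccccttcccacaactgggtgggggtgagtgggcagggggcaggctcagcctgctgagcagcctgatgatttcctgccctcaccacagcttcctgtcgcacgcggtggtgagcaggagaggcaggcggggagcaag
Nmu, chr5:76363728-76364027, minus strand: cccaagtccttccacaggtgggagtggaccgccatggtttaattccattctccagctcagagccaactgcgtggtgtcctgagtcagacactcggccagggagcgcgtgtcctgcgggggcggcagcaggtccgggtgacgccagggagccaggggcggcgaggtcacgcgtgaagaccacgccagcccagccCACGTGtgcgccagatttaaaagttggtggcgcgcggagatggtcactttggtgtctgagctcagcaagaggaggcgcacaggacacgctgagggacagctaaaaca
The E-box began 29 bases before the start in Ddx4, 49 in Taf7l, 11 in Tdrd1, 93 in Slc25a31 and 57 in Nmu, and 166 in Lat. Sycp3 held 2, which began 64 and 43 bases before the start. The RefSeq table holds more than 1 window for some genes, and the first by position that held the motif is shown. Ddx25, which fell, held the E-box as well, while the windows of Tex19.1, Rec8 and Syce1, which rose, held none.

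Genes of the interferon response were higher too. Of 32 interferon-stimulated genes, 21 passed the filter, 8 rose and none fell, with a median difference of 0.93, and 16 of the 21 were higher on 3 of 3 days. Of the 21, 7 passed with the help of Dppa2/4 libraries, 5 of the 8 that rose among them. Rtp4, Oasl1, Ifi44 and Rsad2 were under 1 FPKM in every control library, so they had to be higher with Dppa2/4 to pass. Irf7, the other of these 5, was under 1 FPKM in all control libraries but that of day 14. Its passing in this way favours a higher level with Dppa2/4. With no filter the median over 31 genes was 0.64 and 0 were called. Without day 14, 12 rose. Irf7, the transcription factor that amplifies the type I response, had 10.9, 8.57 and 9.66 FPKM in Dppa2/4 cells on days 8, 11 and 14, against 0.321, 0.534 and 2.62 FPKM in control cells. Its difference was 2.46 ± 0.34, with an adjusted p of 0.00720 in the protein-coding fit and 0.0802 in the fit of all genes. Isg15, a ubiquitin-like modifier, had 18.2, 6.34 and 4.54 FPKM with Dppa2/4 and 0.215, 2.45 and 2.03 FPKM with control, so that most of its difference of 1.98 ± 0.52 lay on day 8. Rtp4, a chaperone of receptors that is induced by interferon, had 6.19, 4.43 and 3.58 FPKM with Dppa2/4 and 0.0434, 0.606 and 0.409 FPKM with control (2.08 ± 0.30). Oasl2, of the oligoadenylate synthetase family, had 9.46, 4.27 and 6.91 FPKM, against 0.131, 1.21 and 1.65 FPKM in control cells (2.01 ± 0.38). Oasl1, Ifi44, Lgals3bp and Rsad2 rose as well. The regulators Irf9 and Usp18 were higher with no overlap of the arms and did not pass, with adjusted p of 0.0867 and 0.0696. Ifitm3, Bst2 and Xaf1, at 11.1 FPKM and above in every library, overlapped.

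Upstream of these genes, 1 of 14 nucleic acid sensors and adaptors rose, close to the 5.83% of all protein-coding genes, with 3 without day 14, 2 without day 8 and none without day 11. Ifih1, which encodes the double-stranded RNA sensor MDA5, had 1.55, 1.49 and 1.99 FPKM in Dppa2/4 cells, against 0.0830, 0.247 and 0.576 FPKM in control cells (1.05 ± 0.25), and was not called without day 11 (1.08). It was under 1 FPKM in every control library, so it had to be higher with Dppa2/4 to pass the filter. The kinase gene Eif2ak2 differed by 1.02 (adjusted p = 0.0595), and the adaptor Mavs, the sensor Ddx58 and the kinase Tbk1 by -0.29 to 0.13. None of the 7 tested receptor and signalling genes passed, though 3 rose without day 8 and 2 without day 14. Ifngr2, of the interferon gamma receptor, came nearest, with 14.0, 16.4 and 21.1 FPKM with Dppa2/4 and 4.43, 4.93 and 16.5 FPKM with control (adjusted p = 0.0619).

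MHC class I genes, which present peptides and are interferon targets, had a median difference of 0.92 over 12 genes, of which 4 rose and none fell. H2-D1, a heavy chain, had 79.3, 72.1 and 78.2 FPKM in Dppa2/4 cells, against 5.80, 10.8 and 52.8 FPKM in control cells (2.25 ± 0.47, adjusted p of 0.0211 in the protein-coding fit and 0.124 in the fit of all genes). H2-K1, another heavy chain, had 75.3, 49.0 and 65.7 FPKM with Dppa2/4 and 10.7, 17.0 and 48.4 FPKM with control. Tap2, of the peptide transporter, had 9.89 to 23.7 FPKM with Dppa2/4, lowest on day 8 and highest on day 14, and 1.35, 2.51 and 13.5 FPKM with control, and was not called without day 11 (1.49). In these 3 genes the control level was far higher on day 14 than before, and the arms drew near. The day 14 control library was also the one with the highest fibroblast and immune marker sums, whose part in this was not tested. Without day 14 10 rose, without day 8 6 rose and 1 fell. H2-Q7, the last that rose, and the heavy chains share near-identical sequence, so their FPKM can be split among copies. H2-Q7 was under 1 FPKM in every control library, so it had to be higher with Dppa2/4 to pass the filter.

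The core of the interferon-stimulated response element, GAAANNGAA, was found in the promoter window of 13 of 24 interferon-stimulated genes (54.2%), against 8.24% of the protein-coding genes tested, 8.25% of those that rose and 8.38% of those that fell. None of the 24 held the E-box, and 8.33% held the E2F motif. 3 windows of genes that rose are shown, with the core in capitals. They were chosen because they hold the core.
Isg15, chr4:156200769-156201068, minus strand: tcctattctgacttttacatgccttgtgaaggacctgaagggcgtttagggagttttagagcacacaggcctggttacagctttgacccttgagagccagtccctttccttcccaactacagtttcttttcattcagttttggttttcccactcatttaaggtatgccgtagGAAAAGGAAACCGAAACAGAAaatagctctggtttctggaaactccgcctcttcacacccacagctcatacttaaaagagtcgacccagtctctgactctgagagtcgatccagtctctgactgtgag
Rsad2, chr12:26456403-26456702, minus strand: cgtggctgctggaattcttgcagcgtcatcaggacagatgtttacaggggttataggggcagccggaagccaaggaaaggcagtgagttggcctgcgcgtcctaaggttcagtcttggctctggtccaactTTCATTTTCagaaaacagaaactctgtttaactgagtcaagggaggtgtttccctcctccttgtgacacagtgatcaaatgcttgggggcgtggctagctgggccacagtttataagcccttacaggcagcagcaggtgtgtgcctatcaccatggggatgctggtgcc
Ifi44, chr3:151749861-151750160, minus strand: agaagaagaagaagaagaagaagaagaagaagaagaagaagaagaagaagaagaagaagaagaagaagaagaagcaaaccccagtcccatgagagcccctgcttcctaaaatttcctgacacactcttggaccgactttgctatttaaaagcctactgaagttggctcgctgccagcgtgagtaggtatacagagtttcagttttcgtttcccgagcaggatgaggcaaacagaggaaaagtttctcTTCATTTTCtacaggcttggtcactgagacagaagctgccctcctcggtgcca
In Isg15 the core occurred 3 times in overlap, beginning 78, 72 and 66 bases before the start. It began 119 bases before the start in Rsad2 and 3 in Ifi44. Irf7, Oasl2, Oasl1 and Lgals3bp rose and held none of the 3 motifs in their windows.

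**Figure D3:**
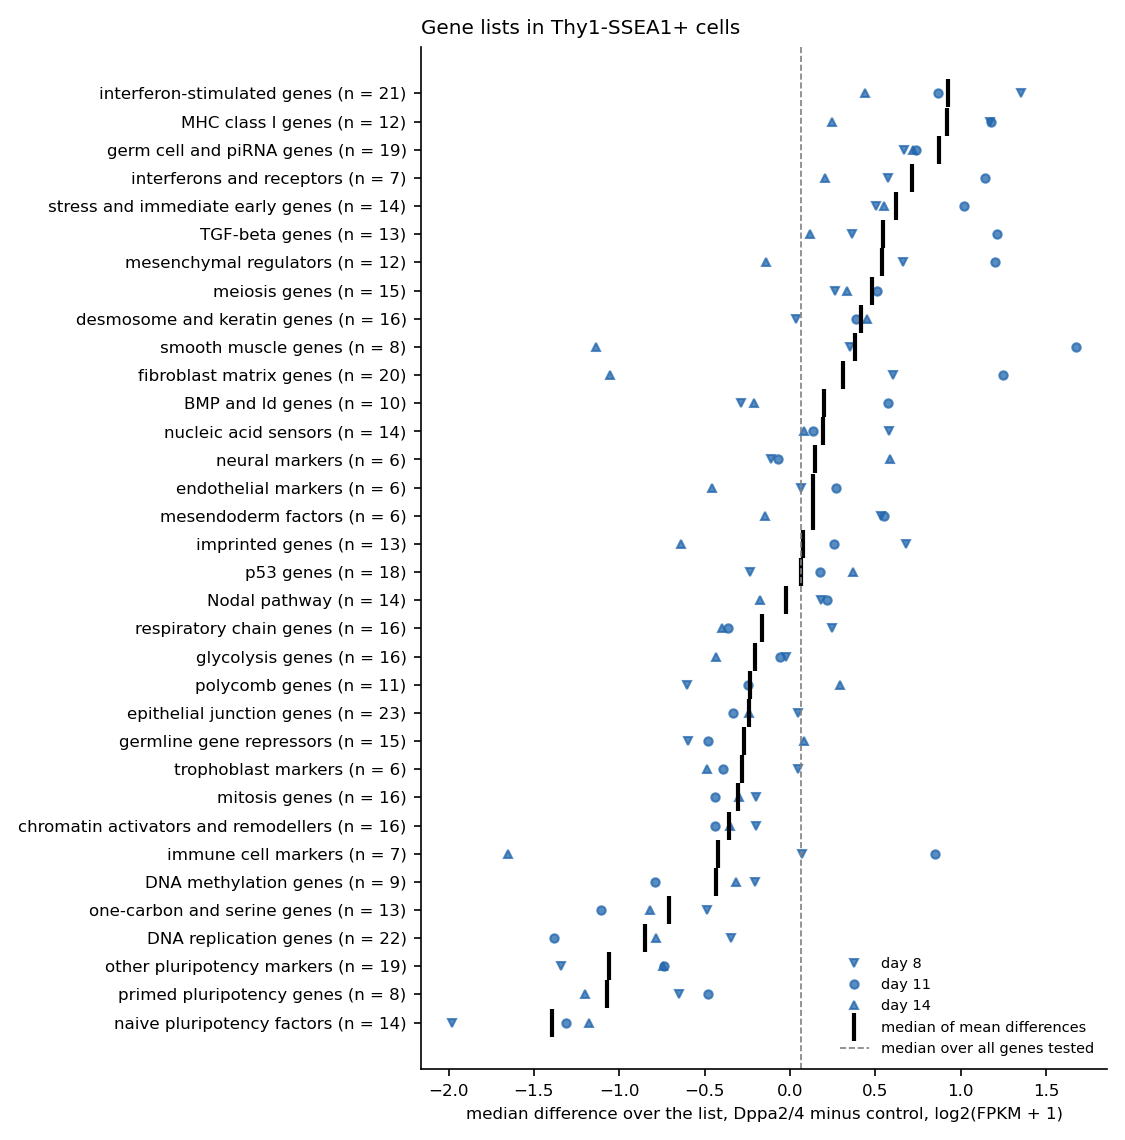
Median difference over each gene list, Dppa2/4 minus control Thy1-SSEA1+ cells (x axis, log2(FPKM + 1)), with 1 symbol per day, a bar at the median of the mean differences and the number of genes tested in parentheses; lists with under 6 genes tested are left out. Naive pluripotency factors have the lowest median (-1.39), and interferon-stimulated genes (0.93) and MHC class I genes (0.92) the highest, though with no filter on low values these are 0.64 and 0.85, and fibroblast matrix and smooth muscle genes lie on opposite sides of 0 on days 11 and 14.

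Epithelial genes did not move as a group. The epithelial junction list had a median difference of -0.24 over 23 genes, of which 2 rose and none fell. Of all protein-coding genes, 5.83% rose and 1.98% fell. Cdh1, E-cadherin, had 76.1, 108 and 125 FPKM in Dppa2/4 cells, against 124, 148 and 122 FPKM in control cells, and Epcam 113, 150 and 175 FPKM against 88.6, 144 and 146 FPKM. Both overlapped between the arms. The 2 that rose were the tight junction genes Marveld2, with 6.56, 8.46 and 9.56 FPKM in Dppa2/4 cells and 0.570, 1.58 and 2.51 FPKM in control cells (1.91 ± 0.29), and Ocln, with 23.4, 31.2 and 44.4 FPKM and 4.82, 9.69 and 12.2 FPKM (1.81 ± 0.27). Without day 8, 2 of the list fell, and without day 14, 3 fell and 3 rose. Among desmosome and keratin genes, 3 of 16 rose and 1 fell: Pkp3, a plakophilin, rose by 1.66 ± 0.33, Krt7 by 1.62 ± 0.40 and Ppl, periplakin, by 1.43 ± 0.29, and Krt17 fell by 1.65 ± 0.29. Without day 11, 1 of the list rose and Krt7 (1.28) and Krt17 (-1.52) were not called, without day 14 6 rose, and without day 8 5 rose and 3 fell.

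Fibroblast and smooth muscle genes changed sides between days. The 20 fibroblast matrix genes had a median difference of 0.60 on day 8, 1.25 on day 11 and -1.05 on day 14. Thbs1 rose (1.23 ± 0.30), though not without day 11 (0.88). It was the 1 of 20 that rose, close to the 5.83% of all protein-coding genes. Col1a1, a collagen I chain, had 15.9, 38.1 and 18.4 FPKM in Dppa2/4 cells, against 15.8, 31.4 and 97.2 FPKM in control cells. Acta2, smooth muscle actin, had 39.1, 108 and 49.9 FPKM with Dppa2/4 and 39.4, 24.5 and 156 FPKM with control. In both arms 1 library held the highest values, that of day 11 with Dppa2/4 and that of day 14 with control, the same libraries as for the fibroblast marker sum. Without day 14, 10 matrix genes, 7 mesenchymal regulators, 6 smooth muscle genes and 6 TGF-beta genes rose, against 1, 0, 0 and 0 with it, and without day 11 none of these did. Without day 8, 2 matrix genes rose and 1 fell, and 1 mesenchymal regulator, 1 smooth muscle gene and 4 TGF-beta genes rose. Prrx1, a mesenchymal homeodomain factor, had 17.6, 49.1 and 25.0 FPKM with Dppa2/4 and 5.93, 8.71 and 25.6 FPKM with control, and did not pass. Of the BMP list, the ligand gene Bmp4 fell (0.807, 2.78 and 2.27 FPKM with Dppa2/4, 11.4, 9.74 and 6.47 FPKM with control, -1.83 ± 0.35) and the ligand gene Bmp7 rose (7.48, 3.89 and 7.14 FPKM with Dppa2/4, 0.497, 0.983 and 2.86 FPKM with control, 1.63 ± 0.33). Bmp7 had too few control libraries at 1 FPKM to pass the filter on the control arm alone.

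DNA replication genes were lower, with a median difference of -0.85 over 22 genes and a downward difference on 3 of 3 days in 16 of them. At the threshold 3 fell, the cyclin gene Ccne1 (-1.36 ± 0.25) and the helicase subunits Mcm5 (-1.29 ± 0.31) and Mcm3 (-1.15 ± 0.28). Mcm5 had 104, 30.6 and 29.5 FPKM in Dppa2/4 cells, against 136, 118 and 90.1 FPKM in control cells. The arms were nearest on day 8. Of the list, 15 fell without day 8, 11 without day 14 and none without day 11, where Ccne1 differed by -1.13, Mcm5 by -0.98 and Mcm3 by -0.84. Mitosis genes, with a median of -0.31 over 16 genes, had no call, and 7 of them were lower on 3 of 3 days. Trp53, the tumour suppressor, fell by 1.35 ± 0.28 on the log2 scale (141, 65.5 and 49.4 FPKM with Dppa2/4, 222, 202 and 174 FPKM with control), and of the other 17 p53 genes none passed. Without day 11 Trp53 (-1.22) was not called, and without day 8 7 of the p53 list rose and 3 fell.

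Of 13 one-carbon and serine genes, which supply methyl groups and nucleotides and on which mouse embryonic stem cells depend, 4 fell and none rose, with a median difference of -0.71. Without day 8 10 fell, without day 11 2. Shmt1, the cytosolic serine hydroxymethyltransferase, had 93.9, 34.6 and 27.1 FPKM in Dppa2/4 cells, against 198, 210 and 116 FPKM in control cells (-1.90 ± 0.30). Tdh, threonine dehydrogenase, had 4.38, 7.17 and 4.27 FPKM with Dppa2/4 and 44.4, 26.2 and 11.7 FPKM with control (-2.03 ± 0.36). A second entry, Tdh.1, has no GENCODE biotype and so was not in the protein-coding fit. It had 24.5, 30.0 and 16.7 FPKM with Dppa2/4 and 304.7, 294.5 and 119.6 FPKM with control. Its difference of -3.20 ± 0.24 was called in the fit of all genes (adjusted p = 0.03). Gldc, of the glycine cleavage system, fell by 1.37 ± 0.29 and was not called without day 11 (-1.07), and Mthfd1 fell by 0.96 ± 0.26. Tdh stands in the list of pluripotency markers too.

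Of 9 DNA methylation genes, Dnmt3b, given above, and Dnmt3l, its cofactor, fell. Dnmt3l had 1.03, 11.9 and 47.7 FPKM in Dppa2/4 cells, against 19.9, 21.3 and 118 FPKM in control cells (-1.81 ± 0.44). Tet1, a 5-methylcytosine oxidase, differed by -1.20 (adjusted p = 0.0556). Without day 8 or day 14, 4 of the list fell. Of 15 repressors of germline genes, Trim28, the KAP1 corepressor, fell by 1.44 ± 0.27 and Yaf2, of a polycomb complex, rose by 1.11 ± 0.27, and neither was called without day 11 (-1.30 and 0.98). Of the 15, 1 rose and 1 fell, beside 5.83% and 1.98% of all protein-coding genes. Without day 8, 3 fell. Among 16 chromatin activators and remodellers H2afx, a histone variant of the damage response, fell by 1.20 ± 0.29 and lost its call without day 11 (-1.09), and 5 fell without day 8 and 3 without day 14. None of the 11 polycomb genes passed, and their median difference was -0.23.

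Of 13 imprinted genes, 10 are protein coding, of which 3 rose and 1 fell. Plagl1, a paternally expressed zinc finger factor, had 40.3, 30.3 and 22.8 FPKM in Dppa2/4 cells, against 12.2, 9.86 and 6.09 FPKM in control cells (1.64 ± 0.26, adjusted p of 0.00924 in the protein-coding fit and 0.0775 in the fit of all genes). Igf2r, the maternally expressed receptor that clears IGF2, rose by 1.20 ± 0.25 and Grb10 by 1.02 ± 0.23, and Peg10, a retrotransposon-derived gene, fell by 1.28 ± 0.29. Without day 11 none rose and 2 fell, with differences of 1.69 for Plagl1 and 1.04 for Igf2r. Stress and immediate early genes had a median difference of 0.62 over 14 genes. Of these, 8 were upward on 3 of 3 days, against 24.8% of all genes tested. Ier3 was the 1 of 14 that rose (1.72 ± 0.38), close to the 5.83% of all protein-coding genes. Without day 11 none of that list rose (Ier3 1.26), without day 8 5 rose, and without day 14 4 rose and 1 fell. Glycolysis and respiratory chain genes had medians of -0.21 and -0.16 with no call in either list, and the respiratory chain median was 0.03 after quantile normalization. Without day 8, 3 respiratory chain genes and 1 glycolysis gene fell, and without day 14 1 glycolysis gene rose.

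Markers of other lineages moved in both directions. Of 6 trophoblast markers tested, 2 rose and 2 fell, and of 6 neural markers 1 rose and 2 fell, with 1 and 0 for the trophoblast list and 1 and 1 for the neural list without day 11. Of the endothelial markers, Cldn5, a tight junction claudin, had 16.2, 3.46 and 2.94 FPKM in Dppa2/4 cells, against 0.144 to 0.154 FPKM in control cells (2.55 ± 0.40), and 5 others of the 6 tested did not pass. Of the neural markers, Gfap rose (1.45 ± 0.31) and Olig2 and Tubb3 fell (-1.41 ± 0.27 and -1.40 ± 0.30). Cldn5 and Gfap were under 1 FPKM in every control library, so they had to be higher with Dppa2/4 to pass the filter. Of the trophoblast markers, Tfap2c, also a germ cell factor, fell to 13.4, 26.1 and 18 FPKM in Dppa2/4 cells, against 54.9, 60.7 and 35.8 FPKM in control cells, Elf5 fell, and Hand1 and Krt7 rose. Without day 11 Tubb3 (-1.10) and Tfap2c (-1.45) were not called. Hand1, a basic helix-loop-helix factor, was also the 1 mesendoderm gene of 6 that rose. It had too few control libraries at 1 FPKM to pass the filter on the control arm alone. No immune, keratinocyte or striated muscle marker passed in all 6 libraries. The immune list had a median of -0.42 over 7 genes. Without day 14 its median was 0.67 and 2 rose, without day 8 1 rose and 1 fell, and without day 11 1 fell.

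The genes with the highest differences beside Ddx4, Taf7l, Dppa2 and Dppa4 were Lat, Apod, 2010001M09Rik, Nmu, Trf and Rgs10. The gene 2010001M09Rik (Mzb1 in GENCODE), an endoplasmic reticulum protein of B cells, had 10.7, 9.72 and 11.2 FPKM in Dppa2/4 cells, against 0.254, 0.467 and 0.646 FPKM in control cells (2.996 ± 0.27), and was called in both fits, with an adjusted p of 0.00222 in the protein-coding fit and 0.0384 in the fit of all genes. Lat, a T cell adaptor protein, had 26.7, 13 and 15.2 FPKM in Dppa2/4 cells, against 0.632, 0.443 and 1.62 FPKM in control cells (3.33 ± 0.33, adjusted p of 0.00302 in the protein-coding fit and 0.0746 in the fit of all genes). Apod, a secreted lipocalin, had 249, 172 and 127 FPKM with Dppa2/4 and 5.38, 17.1 and 61.2 FPKM with control, an interval that closed with the day (3.20 ± 0.60). Nmu, a neuropeptide, had 10.1, 8.22 and 11.2 FPKM with Dppa2/4 and 0.143, 0.360 and 0.982 FPKM with control (2.89 ± 0.28). Trf, transferrin, rose by 2.88 ± 0.37 and Rgs10, a regulator of G protein signalling, by 2.86 ± 0.38. Of these genes, 2010001M09Rik and Nmu were under 1 FPKM in every control library, and Lat and Trf in all but that of day 14. They passed the filter with the help of Dppa2/4 libraries, which favours genes that are higher there.

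The lowest differences beside the pluripotency genes were those of Tac2, Ngfr, Calcoco2 and Trh. Tac2, a tachykinin precursor, had 1.15, 5.79 and 0.539 FPKM in Dppa2/4 cells, against 29.6, 58.2 and 72.8 FPKM in control cells (-4.18 ± 0.42, adjusted p of 0.00302 in the protein-coding fit and 0.0775 in the fit of all genes). Ngfr, the p75 neurotrophin receptor, had 11.7, 6.30 and 1.85 FPKM with Dppa2/4 and 67.3, 43.6 and 15.7 FPKM with control (-2.53 ± 0.26, adjusted p of 0.00302 and 0.0496). Trh, a hormone precursor that reprogramming intermediates express, had 205, 118 and 63.6 FPKM with Dppa2/4 and 722, 573 and 269 FPKM with control (-2.05 ± 0.23). Ngfr and Trh went down with the day in both arms and were lower with Dppa2/4 on each.

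Whether the response was particular to Thy1-SSEA1+ cells was tested against 3 other sorted populations, each with 2 days that had both arms, in 1 fit of 18 libraries (9 pairs, 16335 genes). These were days 8 and 11 for Thy1-SSEA1- cells, 11 and 14 for GFP+ cells and 8 and 14 for Thy1+SSEA1- cells. For the control GFP+ library of day 11 the description names another sort than the title, and without that pair 9 and 6 genes were called against Thy1+SSEA1- cells. Against Thy1+SSEA1- cells, which had kept the fibroblast antigen, the effect was more positive for 20 genes (0.122%) and more negative for 26 (0.159%), with 1524 and 1068 at an unadjusted p under 0.05. Those more negative in the intermediates include Nanog, Esrrb, Utf1 and Zscan10 and the epithelial genes Epcam, Cldn6, Cldn7 and Lsr. Esrrb had an effect of -1.96 in Thy1-SSEA1+ cells and 0.34 in Thy1+SSEA1- cells, and Nanog of -1.01 and 0.45, with levels of 4.58 and 4.69 FPKM with Dppa2/4 and 2.75 and 3.57 FPKM with control in the Thy1+ cells. Cldn7, a claudin, differed little in the intermediates and had 9.94 and 16.9 FPKM with Dppa2/4, against 0.243 and 2.59 FPKM with control, in Thy1+SSEA1- cells of days 8 and 14. Without day 14 in all populations, 2 and 0 genes were called, without day 8 10 and 4, and without day 11 4 were more negative.

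Gsta3, a glutathione transferase, had an effect more positive in Thy1-SSEA1+ cells than in both Thy1- and Thy1+ cells without SSEA1. It had 29.4, 30.2 and 37.0 FPKM in Dppa2/4 intermediates, against 5.35, 5.95 and 8.95 FPKM in control intermediates. In Thy1+SSEA1- cells it had 3.79 and 3.22 FPKM with Dppa2/4 and 14.2 and 12.7 FPKM with control. The difference between the effects was 3.81 ± 0.22 (adjusted p = 0.00103). Against Thy1-SSEA1- cells, 2 genes had a more positive effect (0.0122%) and 3 a more negative one (0.0184%), among them Gsta3 and, on the negative side, Dppa2 and Stmn2. Against GFP+ cells, 2 genes were more positive (0.0122%) and 1 more negative (0.00612%), and none of these was a protein-coding gene with a mean of 1 FPKM or more, while 895 and 486 genes had an unadjusted p under 0.05 for the difference between the effects. Dppa2 and Dppa4 themselves differed little between the arms in GFP+ cells, by 0.07 and 0.04. They differed by 2.94 and 2.92 in Thy1-SSEA1+ cells and by 6.35 to 7.26 in the populations without SSEA1. The populations thus did not share a like difference in these transcripts. The effect on Ddx4 was 3.42 in Thy1-SSEA1+ cells and 1.48 in GFP+ cells, and that on Irf7 2.46 and 0.34. These differences from GFP+ cells did not pass, with an adjusted p of 0.143 for Ddx4 and 0.379 for Irf7. In Thy1-SSEA1- and Thy1+SSEA1- cells the effect was 3.32 and 2.91 for Ddx4 and 3.46 and 2.93 for Irf7. Neither gene differed there from Thy1-SSEA1+ cells at the threshold. The median effect on interferon-stimulated genes in this fit was 0.64 in Thy1-SSEA1+ cells. It was 1.24 in Thy1-SSEA1- cells, 1.14 in Thy1+SSEA1- cells and 0.10 in GFP+ cells. The days with both arms differed between these populations. In Thy1-SSEA1+ cells the median over the 21 such genes of the paired fit was 1.35, 0.86 and 0.44 on days 8, 11 and 14. Irf7 differed there by 3.17, 2.64 and 1.56. Population and day thus cannot be fully told apart in these comparisons.

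**Figure D4:**
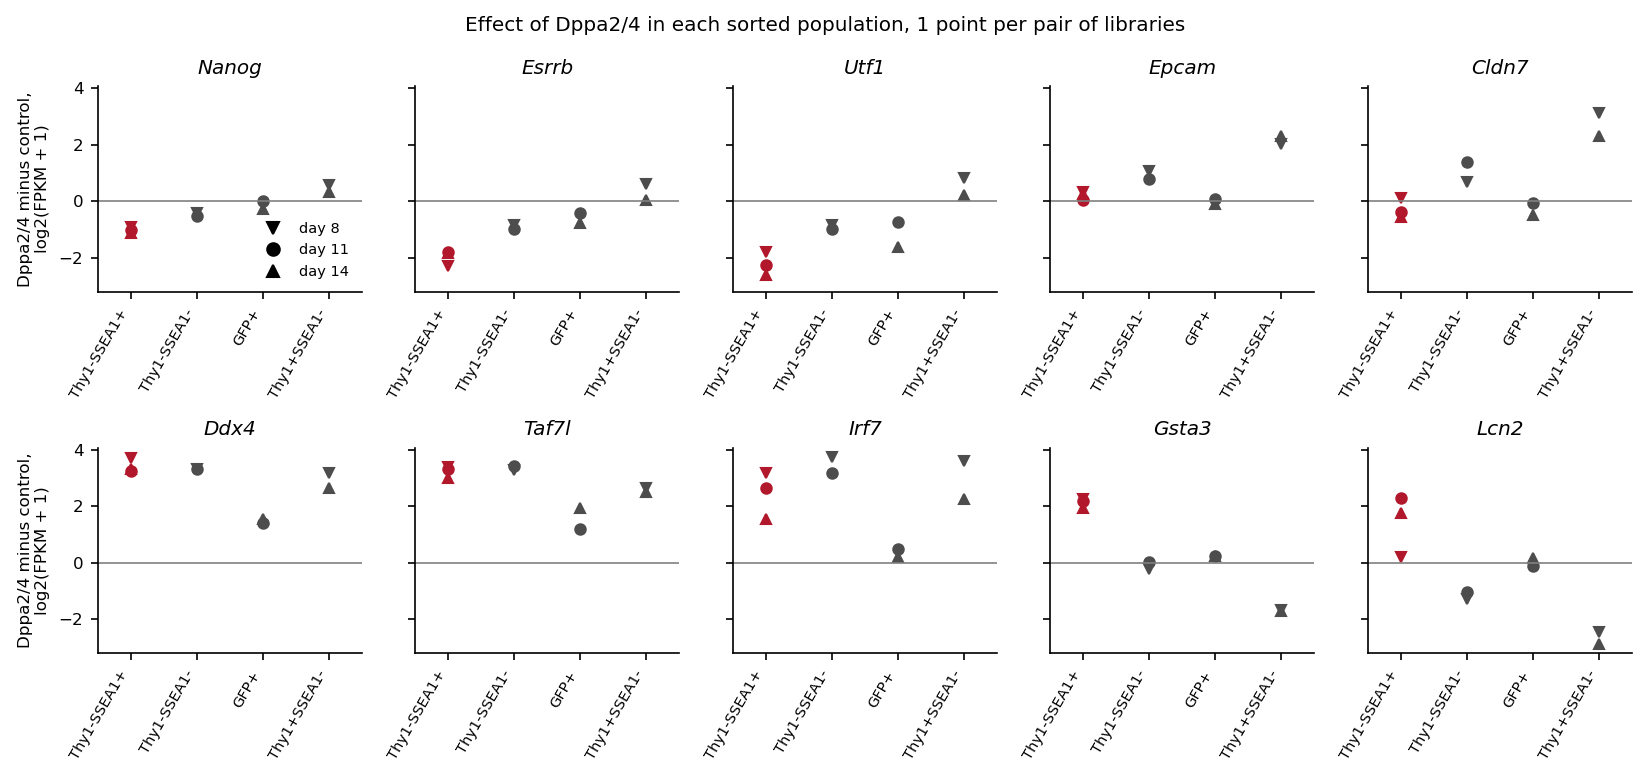
Difference between Dppa2/4 and control cells on the log2(FPKM + 1) scale (y axis) for 10 genes in 4 sorted populations (x axis), with 1 symbol per day and pair of libraries. Esrrb and Nanog lie below 0 in Thy1-SSEA1+ cells and above 0 in Thy1+SSEA1- cells, Gsta3 does the reverse, and Ddx4 and Taf7l lie above 0 in every pair.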

How the data were processed

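Gene expression was read from a deposited table of FPKM values, made by the authors with TopHat2 and Cuffdiff on mm10, per the submitters' processing notes. Versions, annotation, strand setting and normalization are not given in the sources used here. Of 33 value columns, 3 matched no sample by title and were not used. Members and gene lists were chosen with earlier results of these data known. From the deposited FPKM values, log2(FPKM + 1) was computed, and genes with at least 1 FPKM in 2 of the 6 libraries were fitted in limma 3.58.1 (R 4.3.3) with day as a block and arm as the tested term, with an intensity trend and Benjamini-Hochberg adjustment at 0.05.

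The test chosen as the main one used all genes that passed this filter. The fit of protein-coding genes alone was a listed alternative, and the decision to describe gene groups by it was made after its result was seen, because the main test called 15 genes. Calls of the main test and of this alternative are not interchangeable, and each count names its fit. The rule for named genes took fixed genes, up to 2 per list, and the 6 highest and 6 lowest differences; it was widened to 3 per list and the 10 highest and lowest of the protein-coding fit, and further list members were named after their values were seen. Some genes of the lists are not reported here, though they count in the lists' totals. The fit was tested on simulated data. Deviations of same-day libraries from their arm means correlated at 0.27, -0.02 and 0.23 on days 8, 11 and 14. Those of libraries of different days correlated at -0.29 to 0.13. The arms are paired by day through the shared day of collection in the labels. The settings changed in turn were the pseudocount (0.1), the filter (none, or at least 5 FPKM on average), quantile normalization, the trend, the block, the days used, and the libraries or genes fitted together. Motif counts in promoter windows are descriptions without a test.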

Additional observations from a re-analysis of the deposited data

Results flagged for a closer look

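Effects of Dppa2/4 that differed between sorted populations, by the test of the difference itself (limma, fit of 18 libraries), are given as effect in Thy1-SSEA1+ cells minus effect in the other population. The days with both arms differed between the populations. Against Thy1-SSEA1- cells, the difference was 2.22 ± 0.22 for Gsta3 (adjusted p = 0.0419), -2.66 ± 0.22 for Stmn2 (adjusted p = 0.0171) and -3.41 ± 0.29 for Dppa2 (adjusted p = 0.0184). Against Thy1+SSEA1- cells it was 4.09 ± 0.53 for 1110032A04Rik (adjusted p = 0.0396), 4.07 ± 0.57 for Lcn2 (adjusted p = 0.0448) and 3.81 ± 0.22 for Gsta3 (adjusted p = 0.00103). On the negative side it was -3.00 ± 0.36 for Cldn7 (adjusted p = 0.0396), -4.23 ± 0.29 for Dppa2 (adjusted p = 0.00305) and -4.34 ± 0.56 for Dppa4 (adjusted p = 0.0396). Control Thy1-SSEA1+ cells had 6.40 to 14.2 FPKM of Dppa2, which control Thy1+SSEA1- cells of days 8 and 14 had at 0.149 and 0.271 FPKM.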

How the results depend on the processing

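In the fit of all genes, 10 genes were higher and 5 lower. The counts were 0 and 0 with no filter, 5 and 3 at a mean of at least 5 FPKM, 19 and 10 after quantile normalization, 28 and 14 with no replicate block, 1502 and 740 in 18 libraries and 725 and 246 over protein-coding genes alone; leaving out a day gave 231 to 577 higher and 114 to 171 lower. The protein-coding fit (725 and 246) gave 0 and 0 with no filter, 363 and 140 at a mean of at least 5 FPKM, 650 and 464 after quantile normalization, 104 and 28 with no replicate block, 295 to 1612 and 79 to 1154 with a day left out. Of 73 named genes it called, 19 were called with no block, 0 with no filter and 47 of 72 without day 11. With no block, 5 naive pluripotency factors fell, 3 germ cell and piRNA genes rose and 1 fell, and 2 interferon-stimulated genes rose. The Nodal, DNA replication, one-carbon and imprinted lists then had no call. The sign changed without day 14 for Thy1, which ran from -0.88 to 0.85 with a day left out, and for Fut9, which ran from -0.0263 to 0.68. For effects against Thy1-SSEA1- cells (2 and 3), counts were 0 higher with a pseudocount of 0.1 and at a mean of at least 5 FPKM, 6 lower with no filter, 1 lower with no block or without the day 11 GFP+ pair, and 1 to 3 higher and 0 to 2 lower with a day left out. Against GFP+ cells (2 and 1) they were 0 higher with a pseudocount of 0.1, 4 and 5 with no filter, 0 lower at a mean of at least 5 FPKM, 2 lower with no block, 5 and 3 without the day 11 GFP+ pair, and 0 to 1 and 0 to 2 with a day left out. Against Thy1+SSEA1- cells (20 and 26) they were 59 lower with a pseudocount of 0.1, 14 lower with no filter, 6 higher at a mean of at least 5 FPKM, 10 higher after quantile normalization, 12 lower with no block, 9 and 6 without the day 11 GFP+ pair, and 2 to 15 and 0 to 4 with a day left out. The causes were not tested. With 1 library per arm and day, no spread within a day could be measured, and at an estimated 31000000 to 43100000 fragments the levels of short RNAs rest on few fragments.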
